A study of Mus musculus with 6 samples.

Results

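The phase II conjugating enzymes described here were followed in mouse liver across 3 groups. They are the UDP-glucuronosyltransferases (Ugt1 and Ugt2 genes) with the related Ugt3 genes, the sulfotransferases (Sult) and the glutathione transferases. The last are the Gsta, Gstm, Gstp, Gstt, Gstk and microsomal Mgst genes. Members were found by symbol: a probe set counted when its only gene symbol began with one of these names, and the probe set of highest mean stood for the gene. This gave 43 of the 19550 genes on the array with such a probe set and a value. They comprise 8 Ugt2, 2 Ugt3, 14 Sult, 2 Gsta, 7 Gstm, 2 Gstp, 4 Gstt, 1 Gstk and 3 Mgst genes. No Ugt1 gene qualified, because the single Ugt1 probe set is shared by 8 genes. Of the 56 probe sets that carry one of the names, 3 had no value and 9 were shared by several genes. The remaining 44 belonged to the 43 members, with 2 of them for Gstm3.

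RNA from the livers of male C57BL/6NCrSlc mice was hybridised to 6 Affymetrix Mouse Gene 1.0 ST arrays, 2 in each group. The first group is Rgn knockout on an ascorbic acid (AA)-deficient diet (CL-2), the second is Rgn knockout on that diet with AA and EDTA in the drinking water, and the third is wild type on the AA-deficient diet. Rgn encodes regucalcin (SMP30), the gluconolactonase of AA synthesis in rodents, so knockout mice need dietary AA and wild-type mice make their own. All 3 groups therefore shared the deficient diet. The labels give no age, do not say which part of Rgn is missing, and do not state whether 2 arrays of a group mean 2 mice, so p-values measure only the spread between these arrays, which may be technical. EDTA was present only in the supplemented group, so it cannot be told apart from AA.

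Conjugation joins a polar group to a drug, hormone, bile pigment or oxidised lipid, which makes it more soluble and ready for export into bile or blood. UDP-glucuronosyltransferases sit in the endoplasmic reticulum and use UDP-glucuronic acid, sulfotransferases are cytosolic and use PAPS, and glutathione transferases use reduced glutathione. Hepatocytes express many of these enzymes at high levels. Nuclear receptors such as CAR and PXR, the aryl hydrocarbon receptor and the antioxidant factor Nrf2 are known to control many of their genes.

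Values are the deposited normalised log intensities, taken as log10 from their range of -0.58 to 2.51, since the sources used here give neither the log base nor the normalisation. Differences below are on that scale, and folds assume base 10. Probe sets differ in their response, so a member named below as the highest of its family is so by its mean value, which does not show that its transcript is the more abundant. The 5 measured hepatocyte markers averaged between 2.17 and 2.18 on the AA-deficient arrays, between 2.12 and 2.27 on the AA-supplemented arrays and between 2.12 and 2.18 on the wild-type arrays. Rgn, the check of genotype, read 0.229 and 0.297 in AA-deficient knockouts, 0.339 and 0.141 in AA-supplemented knockouts, and 2.07 and 1.996 in wild type. Array medians lay between 0.350 and 0.392. The 2 AA-supplemented arrays differed more than other pairs, with a median gap of 0.0868 over the tested members, against 0.0573 in AA-deficient knockouts and 0.0389 in wild type. With 2 arrays a group, precision is low throughout.

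Each comparison came from a single limma fit over all 6 arrays and 14662 genes whose mean reached 0.185, the 25th percentile, with Benjamini-Hochberg adjustment over those genes and an adjusted p of 0.05 as the threshold. Of the members, 37 entered the fit. The 6 that did not were all sulfotransferases (Sult1c1, Sult1c2, Sult3a1, Sult4a1, Sult6b1 and Sult6b2), with values between -0.330 and 0.347. Around the 0.185 limit, Mgst2 was the lowest member inside, with a mean of 0.209, and Sult4a1 was the nearest outside, with 0.172.

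In AA-deficient knockouts against wild type, 2 of the 37 members passed the threshold: the glucuronosyltransferase Ugt2b35 rose and the sulfotransferase Sult1d1 fell. That is 5.41% of the members, beside 4.63% of all genes tested, of which 3.08% were higher and 1.55% lower. Leaving out either wild-type array reduced the calls over all genes to 1 and those over the members to 0. In AA-deficient against AA-supplemented knockouts limma called 0 of 37 members, beside 0.205% of all genes (0.0409% higher and 0.164% lower), with 9 members at an unadjusted p under 0.05 (24.3%, beside 9.92% of all genes). In AA-supplemented knockouts against wild type it called 0 of 37, beside 0.00682% of all genes, which is Rgn alone, and 6 members had an unadjusted p under 0.05 (16.2%, beside 10.6%). A variance trend in limma's moderation called 2 members in the first of these and 1 in the second. In AA-deficient knockouts against wild type 7 members had an unadjusted p under 0.05 (18.9%, beside 20.4%). The 3 comparisons share arrays pairwise and are therefore not independent. Members are brighter than most genes, so the shares of all genes are an unlike background. With the filter at the 50th percentile 34 members remained among 9775 genes. There a larger share of all genes passed in AA-deficient knockouts against wild type, and Sult1a1 passed as well (adjusted p = 0.0346).

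The members' median difference was -0.0031 in AA-deficient knockouts against wild type, beside -0.0034 over all genes. It was 0.013 in AA-deficient against AA-supplemented knockouts, beside 0.0 over all genes, and 0.019 in AA-supplemented knockouts against wild type, beside -0.0017. With 1 array left out these medians lay between -0.029 and 0.048, between -0.016 and 0.045 and between -0.008 and 0.047, so each changed sign. The groups did not overlap in 20 members for AA-deficient knockouts against wild type (54.1%, beside 54.5% of all genes), of which 11 were higher (27.6% of all genes) and 9 lower (26.9% of all genes). For AA-deficient against AA-supplemented knockouts there were 13 such members (35.1%, beside 37.3%), 7 higher (19.8% of all genes) and 6 lower (17.5%), and for AA-supplemented knockouts against wild type 15 (40.5%, beside 38.6%), 9 higher (19.8% of all genes) and 6 lower (18.8%). The 95% interval of the difference lay within 2-fold for 30, 30 and 34 of the 37 members in AA-deficient against AA-supplemented knockouts, AA-deficient knockouts against wild type, and AA-supplemented knockouts against wild type.

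**Figure D1:**
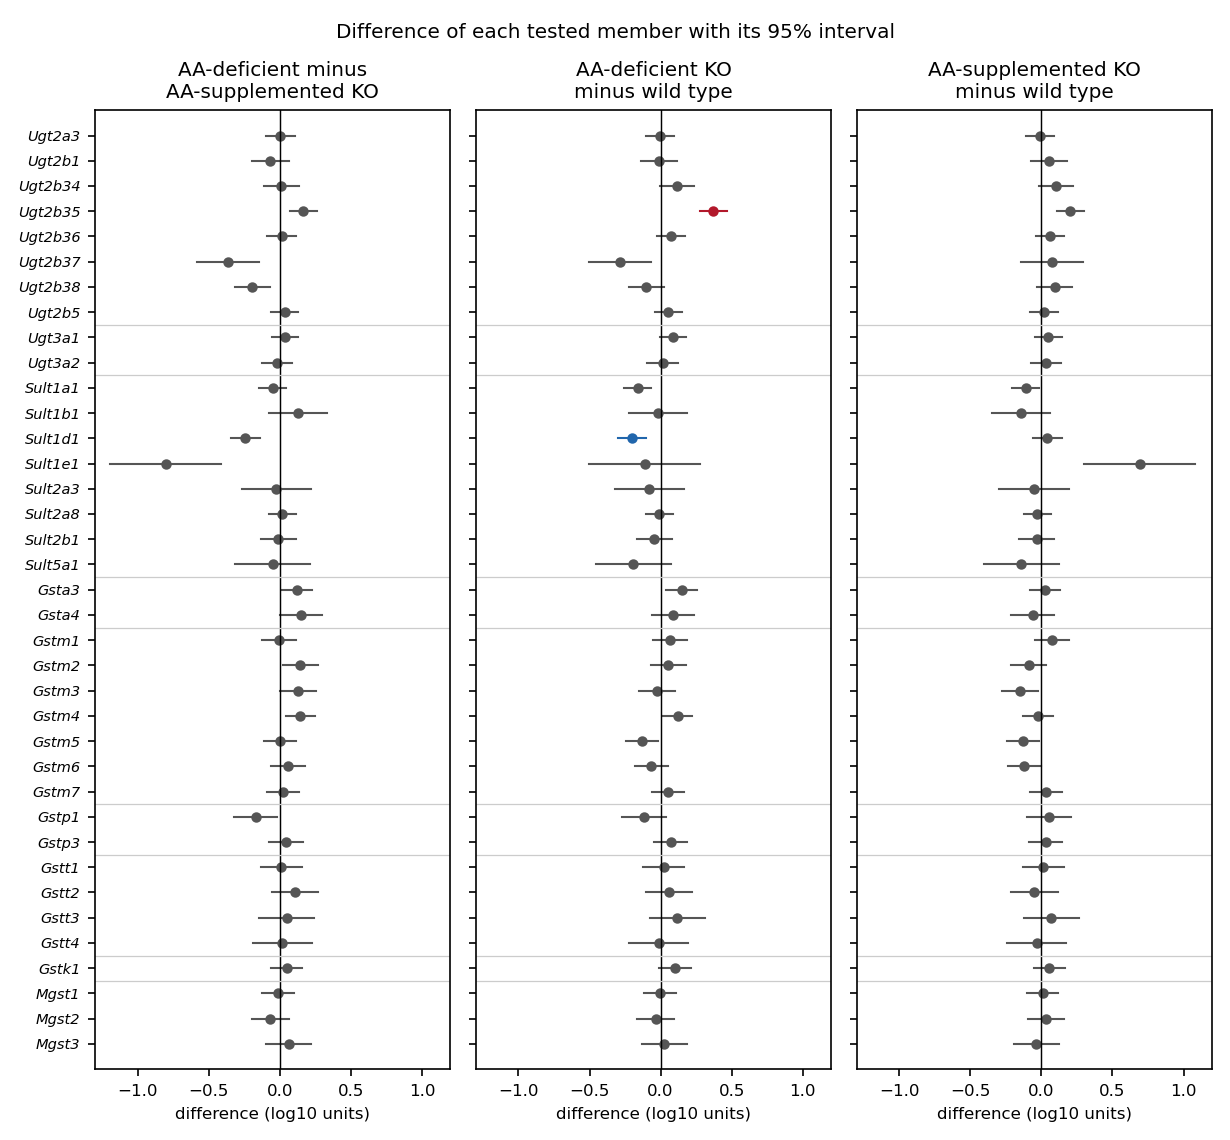
Differences of the 37 tested members on the log10 scale (x axis), one row per gene, in 3 panels for the 3 comparisons; bars are 95% intervals from limma, and red or blue marks a member past the threshold as higher or lower. Most intervals cross 0, Ugt2b35 at 0.37 and Sult1d1 at -0.201 are the coloured rows in AA-deficient knockouts against wild type, and Sult1e1 has the widest displacement in both comparisons with AA-supplemented knockouts.

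Ugt2b35 (Entrez Gene 243085, chromosome 5), a member of the Ugt2b family that glucuronidates steroids, bile acids and drugs, was the member of largest called change. It read 1.74 and 1.72 in AA-deficient knockouts, 1.54 and 1.59 in AA-supplemented knockouts, and 1.35 and 1.37 in wild type. The 3 groups were in this order with no overlap, and the AA-supplemented arrays lay between the others. The rise in AA-deficient knockouts against wild type was 0.37 (SE 0.0406, limma adjusted p = 0.00743), or 2.34-fold. Against AA-supplemented knockouts the difference was 0.166 (adjusted p = 0.204), or 1.46-fold. AA-supplemented knockouts exceeded wild type by 0.204 (adjusted p = 0.19), or 1.6-fold. A variance trend takes that last difference past the threshold (adjusted p = 0.0361), and with robust moderation as well, the difference between the knockouts passes too (adjusted p = 0.0395). Leaving out wild-type replicate 1 or 2 kept the rise at 0.359 or 0.381 but gave adjusted p-values of 0.113 and 0.0737. Such an order of the groups without overlap also held for Ugt3a1 among the members, and for 840 of all genes tested (5.73%).

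The 250 bases before the RefSeq transcript starts of the called genes, are shown as those of the members past the threshold, with Gsta3, which did not pass, as the alpha-class member of highest mean. They are on GRCm38.p6: Ugt2b35 at chr5:87000610-87000859 on the plus strand, Sult1d1 at chr5:87569007-87569256 on the minus strand and Gsta3 at chr1:21240335-21240584 on the plus strand. Capitals mark the searched letters, TGACNNNGC (the core of the antioxidant response element bound by Nrf2) and GCGTG (the core bound by the aryl hydrocarbon receptor), which reads CACGC from the other strand.
Ugt2b35: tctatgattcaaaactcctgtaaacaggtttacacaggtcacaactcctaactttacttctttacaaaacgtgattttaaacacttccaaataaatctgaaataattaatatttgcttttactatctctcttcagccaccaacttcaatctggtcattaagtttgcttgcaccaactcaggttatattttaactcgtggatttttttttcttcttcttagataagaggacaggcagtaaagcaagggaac
Sult1d1: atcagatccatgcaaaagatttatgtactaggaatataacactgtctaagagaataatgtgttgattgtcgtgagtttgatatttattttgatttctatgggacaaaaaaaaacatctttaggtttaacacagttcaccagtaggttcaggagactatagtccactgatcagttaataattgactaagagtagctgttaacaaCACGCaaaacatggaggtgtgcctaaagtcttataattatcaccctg
Gsta3: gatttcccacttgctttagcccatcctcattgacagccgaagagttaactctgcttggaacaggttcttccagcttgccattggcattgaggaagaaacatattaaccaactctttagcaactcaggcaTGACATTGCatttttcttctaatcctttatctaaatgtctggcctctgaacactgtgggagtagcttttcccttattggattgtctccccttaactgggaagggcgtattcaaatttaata
Neither core was found in the Ugt2b35 window, GCGTG was found in that of Sult1d1 and TGACNNNGC in that of Gsta3. Each motif was searched on its own over 300 bases (250 before the start and 50 after, both strands). TGACNNNGC stood in 4 of the 39 members with an entry (Gsta3, Gstm5, Gstm7 and Mgst1), or 10.3%, against 14.0% of all 27025 genes. GCGTG stood in 8 of the 39, or 20.5%, against 35.2% of all genes. A match describes letters only.

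The other 9 Ugt2 and Ugt3 members did not pass the threshold in any comparison under the fit described. Ugt2b1, the Ugt2 member of highest mean, read 2.11 and 2.08 in AA-deficient knockouts, 2.09 and 2.23 in AA-supplemented knockouts, and 2.13 and 2.09 in wild type. The groups overlapped. Ugt2b37 read 0.540 and 0.810 in AA-deficient knockouts, 0.945 and 1.13 in AA-supplemented knockouts, and 0.909 and 1.01 in wild type. AA-deficient arrays were the lowest in this gene, by 0.363 against AA-supplemented knockouts (SE 0.095, adjusted p = 0.226) and 0.286 against wild type (adjusted p = 0.138), and the 2 AA-deficient arrays lay almost as far apart as the second of these differences. Ugt2b38 was also lowest there, with 1.21 and 1.34 in AA-deficient knockouts, 1.43 and 1.50 in AA-supplemented knockouts, and 1.37 and 1.38 in wild type (difference from AA-supplemented knockouts -0.194, adjusted p = 0.254). Neighbouring Ugt2b genes thus gave values on both sides of 0. Ugt2b34, Ugt2b36, Ugt2b5 and Ugt2a3 differed by between -0.0054 and 0.116 in AA-deficient knockouts against wild type.

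Both Ugt3 members, whose human counterparts use sugar donors other than UDP-glucuronic acid, moved little. Ugt3a2, the higher of them by mean, read 1.87 and 1.85 in AA-deficient knockouts, 1.83 and 1.92 in AA-supplemented knockouts, and 1.87 and 1.81 in wild type. Ugt3a1 read 1.79 and 1.78, 1.77 and 1.73, and 1.70 and 1.70 in the same groups, a difference of 0.0859 between AA-deficient knockouts and wild type (adjusted p = 0.283). In AA-supplemented knockouts against wild type, 9 of the 10 Ugt2 and Ugt3 members had a positive difference, beside 7197 of all 14662 genes. None passed the threshold (1 at an unadjusted p under 0.05, beside 10.6% of all genes). Of these, the 8 Ugt2 members are neighbours in 1 cluster. Their median of 0.068 fell to 0.018 without AA-supplemented replicate 2, with 6 of the 8 positive.

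Sult1d1 (Entrez Gene 53315), a sulfotransferase of catecholamines and other phenols, was the only sulfotransferase past the threshold in the fit described. It read 1.41 and 1.33 in AA-deficient knockouts, 1.61 and 1.61 in AA-supplemented knockouts, and 1.58 and 1.56 in wild type. Both AA-deficient arrays were below all 4 others, and the AA-supplemented arrays stood near wild type (difference 0.0416, adjusted p = 0.796). The fall against wild type was 0.201 (difference -0.201, SE 0.0438, adjusted p = 0.0458), or 1.59-fold. The difference from AA-supplemented knockouts was -0.243 (SE 0.0438, adjusted p = 0.104), or 1.75-fold, and passed with a variance trend (adjusted p = 0.0165). The call against wild type was lost without the filter on dim genes (adjusted p = 0.096), with a replicate block (0.095), with all probe sets as units, and without AA-deficient replicate 1 (difference -0.242, adjusted p = 0.105) or replicate 2 (-0.161, 0.294) or wild-type replicate 1 (-0.196, 0.253) or replicate 2 (-0.207, 0.197).

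Sult1e1 (Entrez Gene 20860), the estrogen sulfotransferase, had the largest differences among the members, and both involved AA-supplemented knockouts. It read 0.105 and 0.213 in AA-deficient knockouts, 0.643 and 1.28 in AA-supplemented knockouts, and 0.288 and 0.255 in wild type. The 2 AA-supplemented arrays were the highest of the 6 and lay 0.64 apart, the widest gap between replicates of any tested member. AA-deficient knockouts were below AA-supplemented knockouts by 0.804 (difference -0.804, SE 0.168, 95% interval -1.19 to -0.415, adjusted p = 0.144). That difference passed with centring on array medians (limma adjusted p = 0.04) and with a variance trend (0.0405), but not with trend and robust moderation. AA-supplemented knockouts exceeded wild type by 0.691 (SE 0.168, adjusted p = 0.225). No fold is given for Sult1e1, because its values in AA-deficient knockouts and wild type were as low as those of Rgn in the knockouts and are not shown to be above background. Without AA-supplemented replicate 1 the differences became -1.12 (adjusted p = 0.00412) and 1.01 (adjusted p = 0.00422), and without replicate 2 they became -0.484 (adjusted p = 0.11) and 0.371 (adjusted p = 0.211). AA-deficient knockouts and wild type differed by -0.113 (adjusted p = 0.772).

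Sult1a1, the main phenol sulfotransferase, read 1.09 and 1.05 in AA-deficient knockouts, 1.14 and 1.10 in AA-supplemented knockouts, and 1.22 and 1.23 in wild type. It was the one member that ran from lowest in AA-deficient knockouts to highest in wild type with no overlap, an order found in 588 of all genes (4.01%). AA-deficient knockouts were lower than wild type by 0.161 (difference -0.161, SE 0.041, adjusted p = 0.068), or 1.45-fold. That difference passed with quantile normalisation (adjusted p = 0.0484), with a filter at the 50th percentile (0.0346) and with a variance trend (0.0144).

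Sult2a8, a bile acid and hydroxysteroid sulfotransferase and the Sult member of highest mean, read 1.70 and 1.67 in AA-deficient knockouts, 1.66 and 1.67 in AA-supplemented knockouts, and 1.72 and 1.67 in wild type. Its 3 groups overlapped. Of Sult1b1, known for thyroid hormone sulfation, only AA-supplemented replicate 2 stood off, at 0.751, while the other 5 arrays lay between 1.02 and 1.07. All 8 tested Sult members had a negative difference in AA-deficient knockouts against wild type, from -0.201 to -0.011, with a median of -0.0957, and 1 of them passed the threshold. Of all 14662 genes tested, 7549 had a negative difference there. Sult5a1, a little-studied sulfotransferase, read 0.860 and 0.447 in AA-deficient knockouts, 0.675 and 0.733 in AA-supplemented knockouts, and 0.810 and 0.881 in wild type, so its 2 AA-deficient arrays lay farther apart than those of the other groups. Without AA-deficient replicate 1 its difference from wild type was -0.399 (adjusted p = 0.0311), and with both it was -0.192 (adjusted p = 0.398). The sign of some members depended on single arrays: 5 of 8 were negative without AA-deficient replicate 2 and 6 of 8 without wild-type replicate 1. The family's median stayed negative there, at -0.03 and -0.071.

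**Figure D2:**
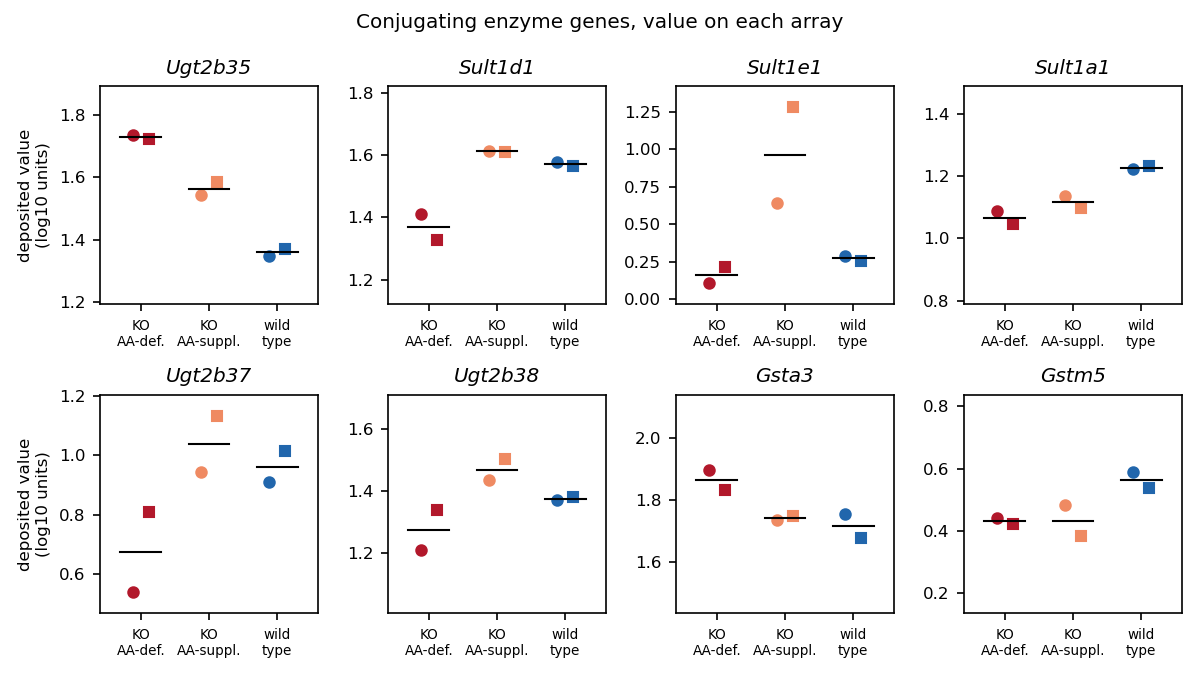
Log10 values of 8 members on each of the 6 arrays, AA-deficient knockouts at left, AA-supplemented knockouts in the middle and wild type at right; circles are replicate 1, squares replicate 2 and bars the group means. Ugt2b35 steps down over the 3 groups without overlap, Sult1d1 is low on both AA-deficient arrays, and the AA-supplemented arrays of Sult1e1 lie far apart at 0.643 and 1.28.

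None of the 19 glutathione transferases passed the threshold with limma in any comparison. In AA-deficient against AA-supplemented knockouts 4 of the 19 had an unadjusted p under 0.05 (beside 9.92% of all genes). The count was 3 in AA-deficient knockouts against wild type (beside 20.4%) and 3 in AA-supplemented knockouts against wild type (beside 10.6%). The one alternative that called any of them was a variance trend with robust moderation, which called Gsta3. Gsta3, an alpha-class enzyme known in mouse for conjugating aflatoxin epoxide, read 1.90 and 1.83 in AA-deficient knockouts, 1.74 and 1.75 in AA-supplemented knockouts, and 1.75 and 1.68 in wild type. Both AA-deficient arrays were above the 4 others. The difference from wild type was 0.147 (SE 0.0459, adjusted p = 0.119), or 1.4-fold, and became adjusted p = 0.0461 with the trend and robust moderation. Gsta4, which conjugates the lipid peroxidation product 4-hydroxynonenal, differed by 0.148 from AA-supplemented knockouts (adjusted p = 0.509).

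The mu class gave values on both sides of 0. Gstm1, its member of highest mean, read 1.81 and 1.79 in AA-deficient knockouts, 1.76 and 1.86 in AA-supplemented knockouts, and 1.78 and 1.69 in wild type, with overlap. Gstm5 read 0.443 and 0.422 in AA-deficient knockouts, 0.482 and 0.384 in AA-supplemented knockouts, and 0.588 and 0.538 in wild type. Wild type was highest on both arrays, with differences of -0.131 in AA-deficient knockouts (adjusted p = 0.171) and -0.13 in AA-supplemented knockouts (adjusted p = 0.404). Gstm3 was lowest in AA-supplemented knockouts, at 1.80 and 1.66 in AA-deficient knockouts, 1.62 and 1.59 in AA-supplemented knockouts, and 1.78 and 1.73 in wild type. Its second probe set ran the same way, at 1.53 and 1.41, 1.37 and 1.23, and 1.51 and 1.53 in the same groups. Neither probe set passed a threshold. In AA-deficient against AA-supplemented knockouts 5 of the 7 Gstm members were higher, by up to 0.145, beside 7334 of all 14662 genes tested.

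Gstp1, the pi-class enzyme, read 2.03 and 2.003 in AA-deficient knockouts, 2.09 and 2.29 in AA-supplemented knockouts, and 2.17 and 2.10 in wild type. AA-deficient arrays were the lowest of the 6, with a difference of -0.171 from AA-supplemented knockouts (SE 0.066, adjusted p = 0.429) and -0.117 from wild type (adjusted p = 0.375). Gstt1, a theta-class enzyme that handles small halogenated compounds, read 1.81 and 1.65, 1.72 and 1.72, and 1.76 and 1.65 in AA-deficient knockouts, AA-supplemented knockouts and wild type, with overlap. Gstk1, the kappa-class enzyme of mitochondria and peroxisomes, read 1.94 and 1.86 in AA-deficient knockouts, 1.82 and 1.88 in AA-supplemented knockouts, and 1.83 and 1.77 in wild type. Its difference from wild type was 0.102 in AA-deficient knockouts (adjusted p = 0.281). The membrane-bound Mgst1 differed by -0.0121 between the knockout groups and by -0.0031 between AA-deficient knockouts and wild type, reading 2.03 and 1.99 in AA-deficient knockouts, 1.97 and 2.08 in AA-supplemented knockouts, and 2.02 and 2.01 in wild type. In AA-deficient against AA-supplemented knockouts 14 of the 19 glutathione transferases had a positive difference, but 9 did without AA-deficient replicate 1 and 17 without replicate 2. With all arrays, 7334 of all 14662 genes tested had a positive difference.

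Of the members, 11 lie together on chromosome 5, in a run of 13 protein-coding genes of the RefSeq annotation that holds the Ugt2 cluster followed by Sult1b1, Sult1d1 and Sult1e1. Both called members are in it. Ugt2b35 is the only one of the 11 on the plus strand, between Ugt2b1 and Ugt2b36, which differed by -0.0106 and 0.073 from wild type in AA-deficient knockouts. Sult1d1 lies between Sult1b1 (-0.0166) and Sult1e1 (-0.113). All 7 Gstm members form a run on chromosome 3, with Gstm5 alone on the plus strand and differences from wild type of between -0.131 and 0.119. Probes for close paralogs in these clusters can bind each other's transcripts, and this was not tested.

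**Figure D3:**
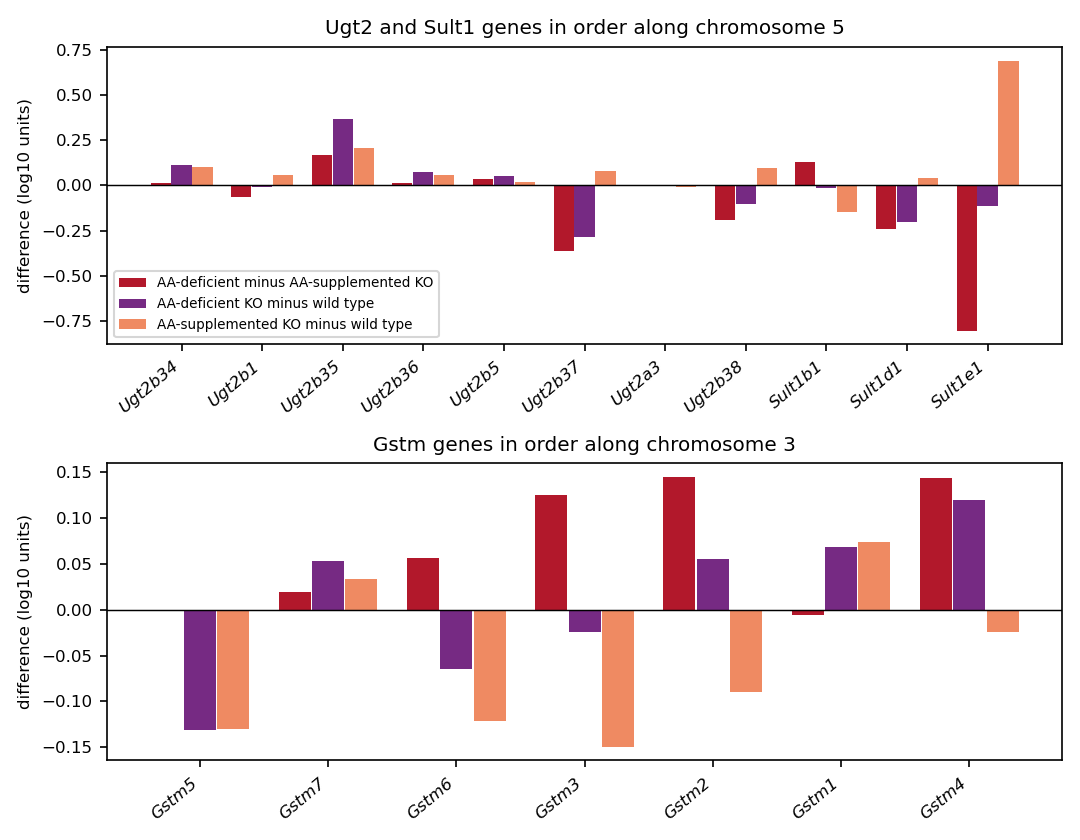
Differences of the members on the log10 scale (y axis) in the order of the genes along the chromosome 5 Ugt2 and Sult1 cluster and the chromosome 3 Gstm cluster, with one bar for each of the 3 comparisons. Neighbours differ in sign and size: Ugt2b35 reaches 0.37 between Ugt2b1 and Ugt2b36, and the Sult1e1 bars of -0.804 and 0.691 are the longest.

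Genes that act around conjugation (cofactor supply, other conjugating reactions, hydrolysis and reduction, sensing and efflux) were counted in the same fit. Of 60 such genes in 5 lists, 50 were tested, of which 8 rose and 2 fell in AA-deficient knockouts against wild type (20.0%, beside 4.63% of all genes). An unadjusted p under 0.05 was found for 26 (beside 20.4% of all genes). The lists were chosen with earlier results of these data known, so these shares are a description and no test. With the filter at the 50th percentile 45 of the genes remained, of which 9 rose and 4 fell, and a larger share of all genes passed too. A variance trend gave 11 higher and 4 lower of the 50, with more of all genes past the threshold as well. Whether the share of 20.0% differs from that of the conjugating enzymes was not tested. With limma 0 of the 50 passed in AA-deficient against AA-supplemented knockouts (15 at an unadjusted p under 0.05, beside 9.92% of all genes). In AA-supplemented knockouts against wild type 0 passed (11 at an unadjusted p under 0.05, beside 10.6%). The calls against wild type depended on single arrays and settings: 2 were left without the filter on dim genes, 1 with a replicate block, 2 without AA-deficient replicate 1, 1 without replicate 2, and 0 without either wild-type array.

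Of the efflux genes, 3 of 6 tested rose in AA-deficient knockouts against wild type (beside 3.08% of all genes), and none fell (beside 1.55%). In AA-supplemented knockouts against wild type none passed in the fit described, and 5 of the 6 had an unadjusted p under 0.05 (beside 10.6% of all genes). Abcc3, the sinusoidal exporter of glucuronides, read 1.78 and 1.77 in AA-deficient knockouts, 1.59 and 1.48 in AA-supplemented knockouts, and 1.34 and 1.34 in wild type. The groups did not overlap, and the rise against wild type was 0.434 (SE 0.0481, adjusted p = 0.00743), or 2.71-fold. Its difference from AA-supplemented knockouts was 0.243 (limma adjusted p = 0.128), and passed with a variance trend (0.0238). Abcc6, needed for ATP release from hepatocytes, rose by 0.277 (SE 0.0413, adjusted p = 0.0174), or 1.89-fold, in AA-deficient knockouts over wild type. Its difference of AA-supplemented knockouts from wild type was 0.188 (limma adjusted p = 0.194), and passed with a variance trend (0.0402). Abcc4, a second sinusoidal exporter, rose by 0.262 (adjusted p = 0.0389), reading 0.541 and 0.579 in AA-deficient knockouts, 0.331 and 0.198 in AA-supplemented knockouts, and 0.276 and 0.319 in wild type. The lower groups are again at the level of Rgn in the knockouts, so no fold is given.

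Among genes of hydrolysis and reduction, 2 of 7 rose in AA-deficient knockouts against wild type, beside 3.08% of all genes. Ephx1, the microsomal epoxide hydrolase, rose by 0.249 (adjusted p = 0.0241), and Arsa, the lysosomal sulfatase of sulfatide, by 0.302 (adjusted p = 0.0276). AA-supplemented knockouts exceeded wild type by 0.0688 in Ephx1 (adjusted p = 0.615) and by 0.191 in Arsa (adjusted p = 0.294). Among 9 xenobiotic sensors, 2 rose in AA-deficient knockouts against wild type (beside 3.08% of all genes). Nr1i3, which encodes CAR, read 1.36 and 1.36 in AA-deficient knockouts, 1.14 and 1.19 in AA-supplemented knockouts, and 1.18 and 1.02 in wild type, a difference of 0.26 from wild type (adjusted p = 0.0477). Nfe2l2, which encodes Nrf2, read 1.55 and 1.54 in AA-deficient knockouts, 1.36 and 1.42 in AA-supplemented knockouts, and 1.31 and 1.35 in wild type, a difference of 0.22 from wild type (adjusted p = 0.0337). In both genes the AA-deficient arrays were above the other 4.

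Other conjugating reactions went both ways, with 1 of 16 tested genes higher and 2 lower in AA-deficient knockouts against wild type (beside 3.08% and 1.55% of all genes). Acsm5, a mitochondrial medium-chain acyl-CoA synthetase, rose by 0.237 (adjusted p = 0.0241). As3mt, the arsenic methyltransferase, fell by 0.258 (adjusted p = 0.0397), and Nnmt, which methylates nicotinamide, fell by 0.235 (adjusted p = 0.0448). Nnmt read 1.62 and 1.71 in AA-deficient knockouts, 1.90 and 1.93 in AA-supplemented knockouts, and 1.94 and 1.85 in wild type. None of 12 cofactor genes passed with limma in AA-deficient knockouts against wild type (5 at an unadjusted p under 0.05, beside 20.4% of all genes). Nearest was Gclc, the catalytic subunit of the limiting enzyme of glutathione synthesis, at 1.90 and 1.86 in AA-deficient knockouts, 1.63 and 1.89 in AA-supplemented knockouts, and 1.58 and 1.53 in wild type (difference from wild type 0.328, adjusted p = 0.0552). Papss2, which makes the sulfate donor PAPS, differed by 0.174 (adjusted p = 0.138).

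**Figure D4:**
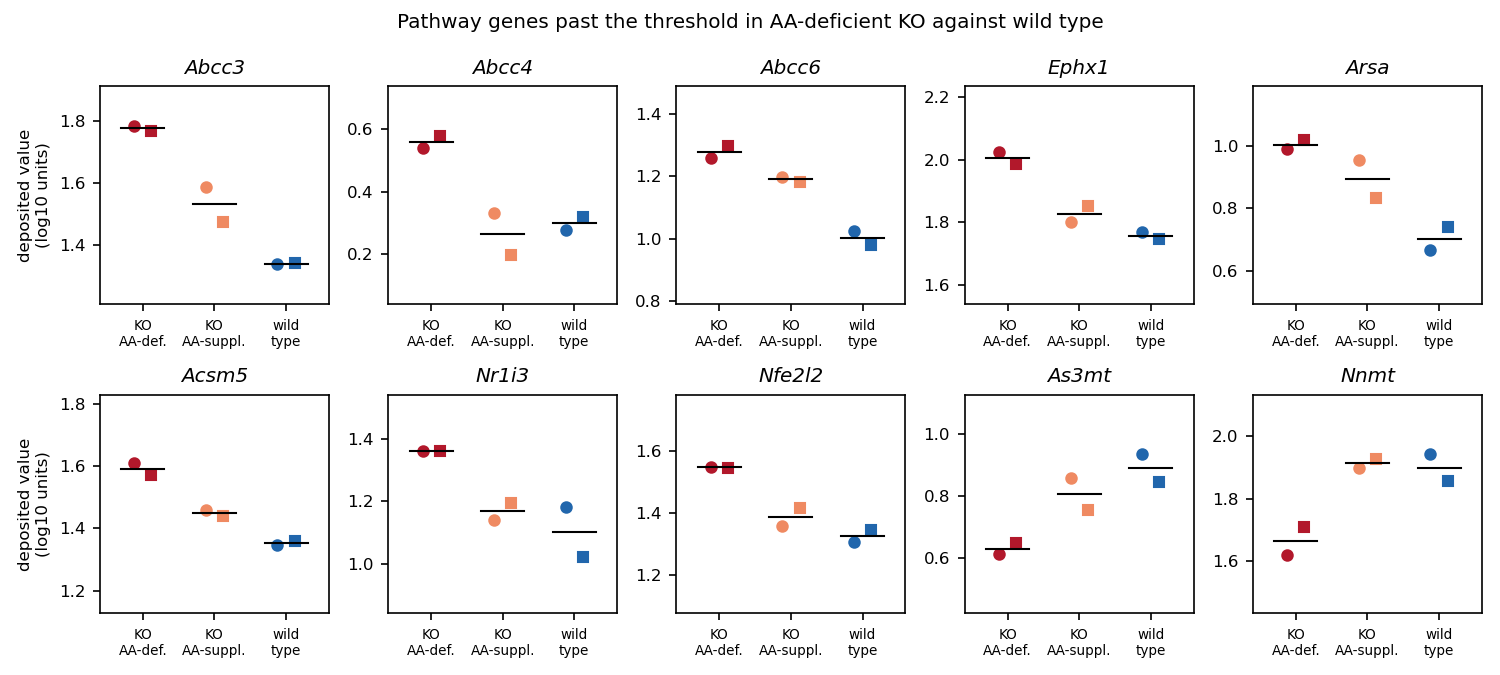
Log10 values on each of the 6 arrays for 10 genes of the pathway lists that passed the threshold in AA-deficient knockouts against wild type, groups running from AA-deficient knockouts through AA-supplemented knockouts to wild type; circles are replicate 1, squares replicate 2 and bars group means. The first 8 are highest in AA-deficient knockouts, and As3mt and Nnmt are lowest there.

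Markers of liver cell types were counted beside these results, because fewer cells of a type and less RNA per cell cannot be told apart in whole liver. Of 43 tested markers in 9 lists, 2 passed the threshold in AA-deficient knockouts against wild type (4.65%, beside 4.63% of all genes). Both were higher, beside 3.08% of all genes. They were the periportal enzyme Hal, with a limma adjusted p of 0.0432, and the endothelial receptor Stab2, with 0.032. Hal rose by 0.208, while the other tested periportal markers differed by 0.0171 (Cyp2f2), 0.0327 (Pck1) and -0.0257 (Hsd17b13). The 6 endothelial markers averaged 0.969 to 1.02 in AA-deficient knockouts, 0.931 to 0.941 in AA-supplemented knockouts, and 0.889 to 0.922 in wild type. Between AA-supplemented knockouts and wild type only Stab2 and Lyve1 of these 6 had a positive difference, and the other 4 a negative one. AA-deficient arrays also averaged above wild type without overlap for Kupffer cell and macrophage markers (0.943 to 1.025, against 0.915 to 0.935). The same held for stellate cell and fibroblast markers (0.62 to 0.645, against 0.572 to 0.574) and for pericentral and periportal markers. Erythroid markers were lower (0.783 to 0.818, against 0.849 to 0.866), and hepatocyte, cholangiocyte and lymphocyte markers overlapped. The 5 cholangiocyte markers averaged 0.157 to 0.253 in AA-deficient knockouts, 0.107 to 0.241 in AA-supplemented knockouts and 0.223 to 0.275 in wild type. The part of any cell type in the results above was not tested.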

How the data were processed

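The members and all gene lists were chosen with earlier results of these data known. Total RNA from liver was labelled for 6 arrays, 2 per group, per the labels' protocols. The authors deposited 1 table of normalised log10-like values for 34760 probe sets, of which 30765 had a value. For the tools, normalisation and log base, no source used here gives a statement, and base 10 was inferred from the range. GEO's platform annotation gave 1 symbol for 21161 of these probe sets, several for 1150 and none for 8454, and 21079 were matched to RefSeq by Entrez number. The probe set of highest mean was kept for each of 19550 genes, and the 14662 at or above the 25th percentile entered limma 3.58.1 under R 4.3.3 (eBayes without trend, two-sided, prior df 4.89, residual df 3). The script was tested on simulated data. Named members are those past the threshold, the highest of each family by mean and the 3 of smallest p per comparison. Other members appear as ranges or were chosen after their values were seen. Alternatives changed the filter, normalisation, probe set rule, moderation, arrays and replicate block. Ranges of marker means are over the arrays of a group. Promoters are from RefSeq, which held an entry for 39 members. Same-group arrays correlated at 0.965 to 0.975 and arrays of different groups at 0.945 to 0.974.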

Additional observations from a re-analysis of the deposited data

How the results depend on the processing

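With 2 arrays a group, counts depended strongly on the settings. Genes past the threshold in AA-deficient against AA-supplemented knockouts numbered 30 (20% higher), and became 0 with no filter on dim genes, 51 with a filter at the 50th percentile, 14 with quantile normalisation (7.14% higher), 57 with centring on array medians, 154 with a variance trend, 177 with trend and robust moderation, 0 with only the 4 arrays compared, 0 with all probe sets as units (chosen after seeing the data) and 0 to 46 with 1 array left out. The members called there became 1 with centring (Sult1e1), 2 with the trend, 2 with trend and robust moderation, and 0 to 1 with 1 array left out. In AA-deficient knockouts against wild type, 679 genes became 173 without the filter, 1057 at the 50th percentile, 1271 with the trend, 1312 with trend and robust moderation, 1031 with only the 4 arrays and 1 to 1031 with 1 array left out (1 without either wild-type array, 140 and 88 without AA-deficient replicate 1 and 2). The 2 members became 1 without the filter, 4 with trend and robust moderation, 1 with all probe sets as units and 0 to 2 with 1 array left out, while the members' median changed sign with 1 array left out, between -0.029 and 0.048. In AA-supplemented knockouts against wild type, 1 gene became 8 with centring, 94 with the trend, 116 with trend and robust moderation, 38 with all probe sets as units and 1 to 7 with 1 array left out. The members called became 1 with the trend, 1 with trend and robust moderation and 0 to 1 with 1 array left out. The cause of these changes was not tested.

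The labels do not say whether replicate numbers pair the arrays. Deviations of same-numbered arrays correlated at -0.369 between the knockout groups and 0.358 between AA-deficient knockouts and wild type. Between AA-supplemented knockouts and wild type they correlated at -0.284. With 2 arrays a group, the sign of each value depends on how the arrays are numbered. These values therefore cannot show whether arrays were paired or shared a batch, and the block below covers only the deposited numbering. With a replicate block, 4 genes were called in AA-deficient against AA-supplemented knockouts, 163 (with 1 member, Ugt2b35) in AA-deficient knockouts against wild type and 3 in AA-supplemented knockouts against wild type.

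Reversals among the named members concerned small, uncalled differences. In AA-deficient against AA-supplemented knockouts, Gstm5 became 0.008 with quantile normalisation and 0.001 with centring, and Gstt1 became -0.002 with quantile normalisation. In AA-deficient knockouts against wild type, Ugt3a2 became -0.002 with quantile normalisation. In AA-supplemented knockouts against wild type, Mgst1 became -0.023 with quantile normalisation and -0.005 with centring, and Gstt1 became -0.001 with centring. With 1 array left out, differences of AA-deficient from AA-supplemented knockouts ranged from -0.072 to 0.088 for Gstt1, -0.001 to 0.034 for Sult2a8, -0.056 to 0.044 for Gstm1, -0.05 to 0.048 for Gstm5, -0.064 to 0.04 for Mgst1, -0.139 to 0.007 for Ugt2b1 and -0.06 to 0.021 for Ugt3a2. Those of AA-deficient knockouts from wild type ranged from -0.06 to 0.101 for Gstt1, -0.025 to 0.019 for Mgst1, -0.033 to 0.011 for Sult2a8, -0.031 to 0.009 for Ugt2b1 and -0.015 to 0.042 for Ugt3a2. Those of AA-supplemented knockouts from wild type ranged from -0.046 to 0.154 for Gstp1, -0.043 to 0.061 for Mgst1, -0.018 to 0.129 for Ugt2b1, -0.007 to 0.073 for Ugt3a2, -0.011 to 0.064 for Gsta3 and -0.043 to 0.068 for Gstt1. Signal over background was not analysed here, so its limit on dim genes is unknown.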

Other observations

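Probe sets that several conjugating genes share were left out of the members and were fitted over all 23074 probe sets past the filter, a choice made after seeing the data, so no gene is named from them. The probe set shared by 8 Ugt1 genes read 1.51 and 1.44 in AA-deficient knockouts, 1.41 and 1.39 in AA-supplemented knockouts, and 1.37 and 1.37 in wild type, where AA-deficient knockouts exceeded wild type by 0.102 (limma adjusted p = 0.282). Of 3 probe sets shared by 4 alpha-class entries, the brightest read 1.37 and 1.23 in AA-deficient knockouts, 1.26 and 0.928 in AA-supplemented knockouts, and 0.995 and 0.977 in wild type (difference of AA-deficient knockouts from wild type 0.311, adjusted p = 0.156). The other 2 differed by 0.361 (adjusted p = 0.131) and 0.301 (adjusted p = 0.261) in the same comparison. A probe set shared by 2 pi-class genes read 1.44 and 1.44 in AA-deficient knockouts, 1.55 and 1.69 in AA-supplemented knockouts, and 1.61 and 1.62 in wild type (difference from wild type -0.169, adjusted p = 0.15). None of the 9 shared probe sets passed the threshold in any comparison in limma.

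AA-supplemented replicate 2 was the highest or lowest of the 6 arrays in 21 of the 37 tested members (56.8%), against 42.4% of all genes tested. AA-deficient replicate 1 was so in 18 members (48.6%, against 28.4% of all genes). Gaps between the AA-supplemented arrays were above 0.2 in 6 members (Gstt2, Gstt4, Mgst3, Sult1b1, Sult1e1 and Sult2a3) and in 5.16% of all genes tested. Those between the AA-deficient arrays were so in 3 members (Gstt3, Sult5a1 and Ugt2b37) and 2.41% of all genes, and those between the wild-type arrays in 1 member (Sult2a3) and 1.81% of all genes.

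Sult1c2, a sulfotransferase too dim to be tested, read 0.279 and 0.347 in AA-deficient knockouts, 0.177 and -0.046 in AA-supplemented knockouts, and 0.145 and 0.059 in wild type, and was named after its values were seen.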
